A study of Canis lupus familiaris with 37 samples.

Results

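CLBL-1 is a canine cell line grown from a large B-cell lymphoma, and CLBL-1M was grown in turn from a tumour that CLBL-1 cells had formed in a mouse. Here the 5 libraries titled CLBL-1 and the 5 titled CLBL-1M were pooled as 1 line (CLBL) and compared with the 4 libraries titled control, which are non-neoplastic canine lymph nodes. These 14 libraries were chosen by their titles alone, out of 37 in the series. The other libraries include 12 primary B-cell lymphomas, used below for comparison. The labels name no treatment, genotype, breed or age for either group. All 10 CLBL libraries descend from the tumour of 1 dog and were made from cells grown in culture, so they are replicates of 1 line. The p-values rest on a spread estimated over all 37 libraries in 7 groups. That spread includes the one between the 12 primary B-cell lymphomas, beside those within CLBL and between the 4 nodes. Growth in culture, a tumour origin and the donor dog cannot be told apart in this design.

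Large B-cell lymphoma arises from mature B cells, which in a lymph node divide in germinal centres after contact with antigen. A node is a mixture: beside B cells it holds T cells, macrophages and dendritic cells, blood and lymph vessels, and the fibroblast network and matrix that support them. A suspension line such as CLBL holds dividing cells of a single lineage. In bulk RNA, fewer cells of a type and less RNA per cell of that type cannot be told apart.

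Between 1980761 and 3414487 reads per CLBL library (median 2961940) and between 1962722 and 3034152 per control (median 2246186) were counted on genes, so that 3 counts, the smallest level taken as visible, represent 0.8786 to 1.528 CPM before further scaling (CPM are counts set to a common library size). Expression levels below are CPM after TMM scaling, and fold-changes are log2 values of CLBL over control. One label of control replicate 4 describes a T-cell line, while its title and the name of its data describe a node. The correlation of its log2 CPM was 0.882 to 0.913 with the other controls, 0.673 to 0.698 with CLBL, 0.623 to 0.631 with the T-cell line OSW and 0.586 to 0.588 with the T-cell line CL-1. The share of reads falling on more than 1 gene was 0.476% in that library and 0.128 to 0.143% in the other controls, against 0.363 to 0.549% in CLBL. Because of this label and share, results are also given against control replicate 4 alone. The share was 0.363 to 0.549% over all 17 cell line libraries and 0.0977 to 0.229% over the 16 primary lymphomas. CLBL thus differed in it from control replicates 1 to 3 and from every lymphoma, and its part in the comparisons was not tested. A flow cytometry field in the labels disagrees with the titles of many samples in the series, all 4 controls among them, and was not used. Within CLBL, CLBL-1 replicates 1 and 3 and CLBL-1M replicate 2 stood apart. Their log2 CPM correlated with those of the other 7 at 0.968 to 0.981, against 0.978 to 0.988 among the other 7, and they were also the 3 shallowest CLBL libraries. The counts carry Ensembl gene IDs with no symbols. Symbols that the study describes in its supplement for its differentially expressed genes were not used here. The defining markers of B cells, T cells, macrophages, vessels and stroma were therefore not looked up. Only SHCBP1 and FLT3 are named, by the IDs that the study's text gives.

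At an adjusted p of at most 1e-05 (edgeR quasi-likelihood test, Benjamini-Hochberg over 15162 genes), 4097 genes (27%) were differentially expressed between CLBL and the control nodes. Of these, 1411 (9.31% of the genes tested) were up-regulated and 2686 (17.7%) were down-regulated, so 65.6% of the called genes fell. RLE size factors in place of TMM gave 975 genes that rose and 3141 that fell (76.3% of calls) and moved the median log2 fold-change of all genes by -0.22, from -0.17 to -0.39. The directions below are read against that median. In CLBL the genes that rose took 25.7 to 31.4% of all reads on genes, compared with 9.52 to 10.9% in the controls. The genes that fell took 2.29 to 3.12% in CLBL and 18.03 to 24.8% in the controls. These genes were chosen by this contrast, so the shares are a description. In the 12 B-cell lymphomas they were 15.2 to 21.9% for the genes that rose and 8.39 to 12.2% for the genes that fell, and in the T-cell line OSW 23.0 to 25.9% and 8.52 to 9.76%.

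The 2 directions differed in size. The median log2 fold-change was 1.68 among the genes that rose and -6.005 among the genes that fell, or -5.61 with genes at 0 set to the bound that 3 counts allow. With genes at 0 set to that bound, 24 of the genes that rose and 1591 of the genes that fell reached 5 or more on the log2 scale. In all 10 CLBL libraries, 693 of the genes that fell (25.8%) had no read, and 5 of the genes that rose had none in all 4 controls. The median level of the genes that fell was 28.2 CPM in the controls and 0.203 CPM in CLBL, and that of the genes that rose was 31.6 CPM in the controls and 109 CPM in CLBL. Of 11393 genes with a mean of at least 10 CPM in either group, 5982 (52.5%) differed by less than 2-fold. The filter kept a gene by its highest library, so a gene high in the controls alone or in CLBL alone also entered the test.

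**Figure D1:**
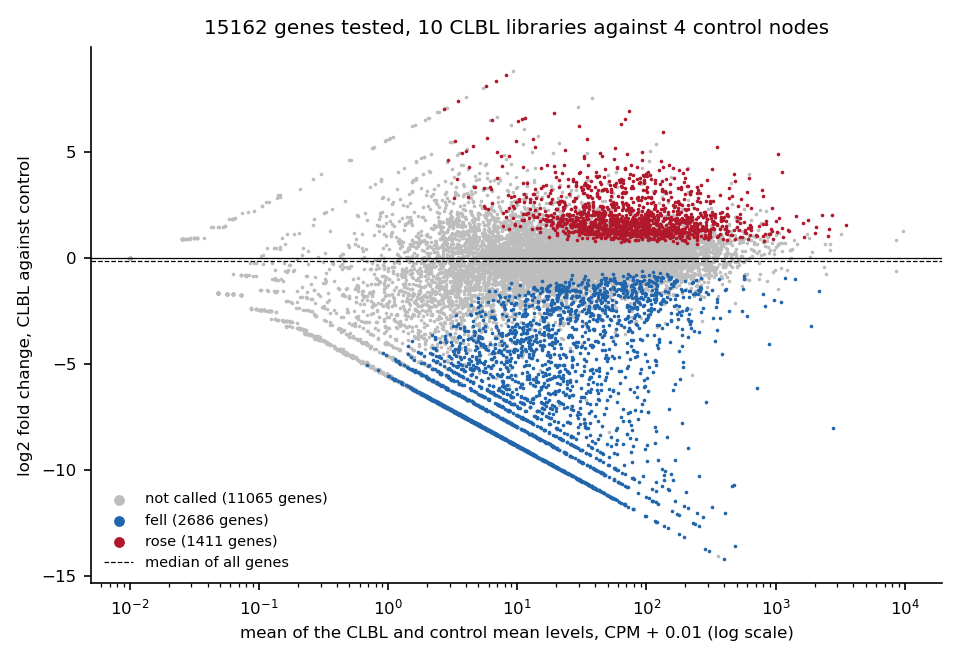
Each point is 1 of 15162 genes, with the mean of the CLBL and control mean levels (CPM plus 0.01, log axis) on the x axis and the log2 fold-change of CLBL over control on the y axis. The 2686 genes that fell (blue) reach -14.21, their lower edge being the genes at 0 in CLBL, while most of the 1411 genes that rose (red) lie close to their median of 1.68.

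Few of the called genes overlapped between the groups. Every CLBL library was above every control for 1404 of the 1411 genes that rose, and below every control for 2637 of the 2686 that fell, beside 21.7% and 28.6% of all genes tested that were separated in that way. Against control replicate 4 alone, 1411 of the 1411 and 2684 of the 2686 had the same direction, with medians of 1.71 and -5.75. Every CLBL library was above that library for 1406 of the genes that rose and below it for 2655 of the genes that fell (32.5% and 40.2% of all genes). With a single control in the test, 83 of the genes that rose and 1137 of those that fell passed the threshold on their own, and 86 (0.567%) and 1148 (7.57%) of all genes did. Control replicate 4 was among the controls that made the calls, so a shared direction is in part built in.

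The largest fitted rise among genes with a mean of at least 20 CPM and no overlap was that of ENSCAFG00000013961, which the study lists under the G1/S transition of the mitotic cell cycle, the step at which a cell commits to copying its DNA. Its levels in control replicates 1 to 4 were 2.11, 0.497, 1.22 and 0.747 CPM. In CLBL it ranged from 97.6 to 211 CPM with a median of 138 CPM. Every CLBL library was far above every control, at a log2 fold-change of 6.92 (SE 0.95, n = 10 and 4, edgeR adjusted p = 1.27e-07) and 7.52 against control replicate 4 alone. The primary B-cell lymphomas spread from 0.447 to 97.4 CPM with a median of 23.5 CPM, and the highest tumour lay just under the lowest CLBL library. Other lines did not share this level: the gene was at 0 to 0.725 CPM in OSW, 0 and 0.282 CPM in CL-1 and 0 in GL-1.

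ENSCAFG00000025377, which has no term in the study's lists, had a fitted rise of nearly the same size (6.82), and the order of these genes is not settled by their few control reads. It had 3 reads in all controls together, with 0, 0.995, 0 and 0.374 CPM in replicates 1 to 4. In CLBL it ranged from 27.5 to 52.9 CPM with a median of 38.6 CPM. The ratio of CLBL to control was 133 with a 95% counting interval of 45.5 to 647, which covers counting error only, and the adjusted p was 4.35e-10 (edgeR). In the B-cell lymphomas it ranged from 0 to 1.62 CPM with a median of 0, and the log2 difference between CLBL and B-cell lymphomas was 7.21 (SE 0.43, adjusted p = 4.18e-15). Every CLBL library was above every node and every primary tumour. The gene was not particular to CLBL among the lines: the T-cell line OSW had 59.1 to 98.5 CPM, above every CLBL library, and CL-1 had 7.42 and 9.58 CPM.

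Such a contrast with the primary tumours was also seen for the gene with the fifth largest rise. It ranged from 76.3 to 297 CPM in CLBL and from 0.845 to 1.83 CPM in the controls, but its median in the B-cell lymphomas was 0 and its highest level there was 0.647 CPM. The gene with the seventh largest rise, a member of the study's cell cycle list, lay at 80.9 to 209 CPM in CLBL, at 0.913 to 2.11 CPM in the controls and at a median of 3.21 CPM in the B-cell lymphomas. The gene with the ninth largest rise had the most reads of the 10, at 202 to 315 CPM in CLBL against 3.38 to 4.87 CPM in the controls. The primary tumours spread from 0.254 to 114 CPM, with a median of 39.2 CPM, and all of them were below CLBL.

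Among the falls, genes at 0 in CLBL have only a bound, so their order by fitted fold-change is not established. The largest fitted fall was that of ENSCAFG00000008692, which the study lists under heparin binding and under negative regulation of endothelial and epithelial cell migration. Its levels in control replicates 1 to 4 were 1117, 595, 910 and 583 CPM. No read was counted in any of the 10 CLBL libraries, so it was at least 7309-fold lower against a floor of 3 counts over the group (edgeR adjusted p = 5.79e-11). The primary B-cell lymphomas retained 32.2 to 329 CPM (median 148 CPM), below the controls but all above CLBL.

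ENSCAFG00000018608, listed by the study under immune response, followed the same order. It was at 628, 1026, 462 and 342 CPM in control replicates 1 to 4 and at 0 in all CLBL libraries, at least 5606-fold lower (adjusted p = 2.05e-10, edgeR). The B-cell lymphomas had 8.93 to 109 CPM with a median of 28.8 CPM. A further gene of this kind is in the immunoglobulin domain list, with 351 to 681 CPM in the controls and no read in CLBL, at least 5220-fold lower. A member of the myeloid leukocyte activation list, with 659 to 1206 CPM in the controls and at most 0.306 CPM in CLBL, had a log2 fold-change of -13.58 (SE 0.73), which exceeds the bounds of the genes at 0.

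SHCBP1 encodes a protein that binds the adaptor SHC1 and is made in dividing cells. It was at 28.3, 13.4, 23.7 and 11.2 CPM in control replicates 1 to 4 and at 79.8 to 139 CPM (median 118 CPM) in CLBL. All CLBL libraries were above all controls, by a log2 fold-change of 2.55 (SE 0.31, adjusted p = 1.07e-08, edgeR). The lowest 3 of its CLBL levels, 79.8, 89.7 and 90.0 CPM, were those of the 3 libraries that stood apart. The B-cell lymphomas reached 129 CPM (median 83.8 CPM), and their difference from CLBL of 0.46 (SE 0.19) did not pass the threshold (adjusted p = 0.0295).

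FLT3, the receptor tyrosine kinase of early blood progenitors and dendritic cells, changed the other way. It was at 38.9, 29.3, 35.0 and 27.3 CPM in the controls and at 0.308 to 3.26 CPM (median 1.13 CPM) in CLBL, where 36 reads were counted over the 10 libraries. The groups did not overlap, and the log2 fold-change was -4.58 (SE 0.43, adjusted p = 5.26e-11, edgeR). The primary B-cell lymphomas, at 0.277 to 6.47 CPM, overlapped CLBL and were also below every control. The log2 fold-change of CLBL over the tumours was -1.39 (SE 0.38) and did not pass the threshold (adjusted p = 0.00186, edgeR).

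**Figure D2:**
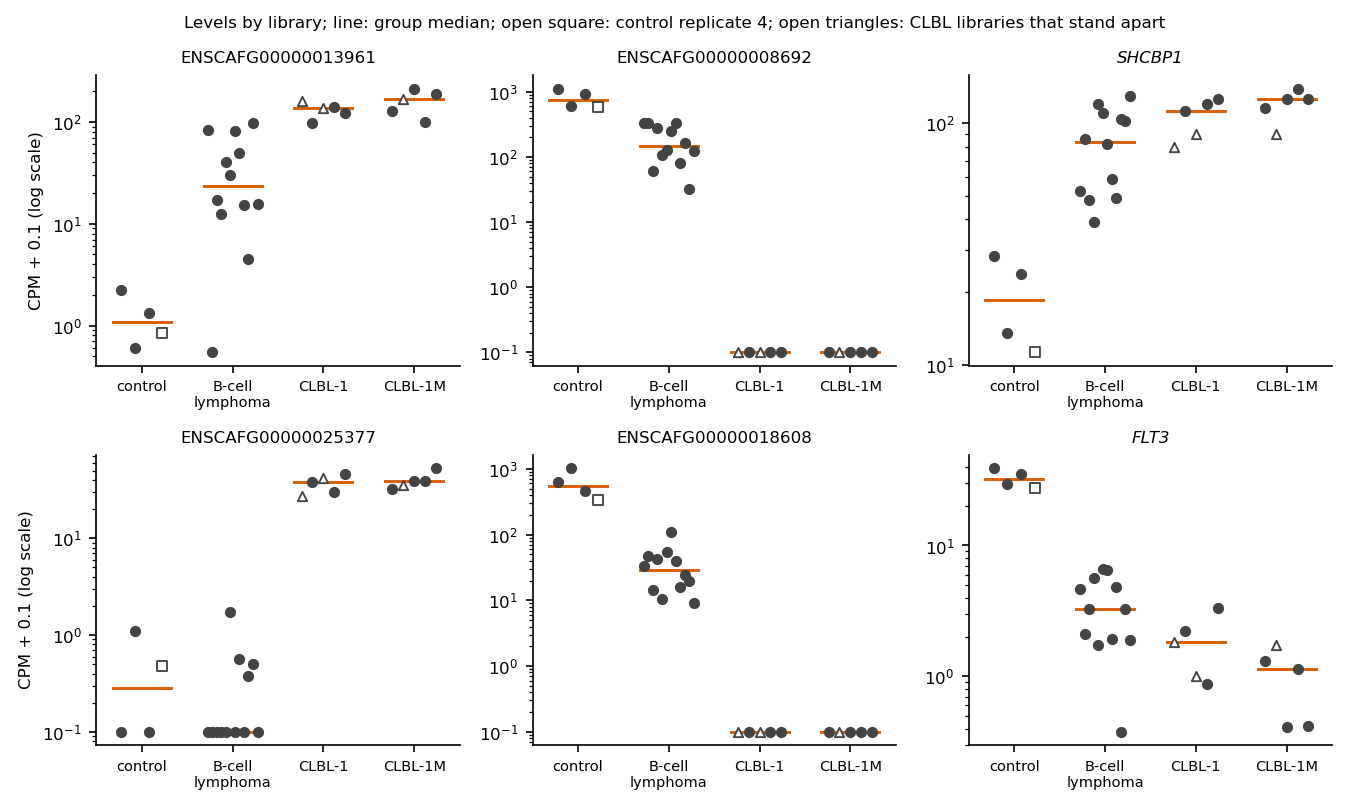
Each point is 1 library, with its level (CPM plus 0.1, log axis) by group and the group median as a line. Open squares mark control replicate 4 and open triangles the 3 CLBL libraries that stood apart; ENSCAFG00000008692 and ENSCAFG00000018608 sit at 0 in all 10 CLBL libraries, and control replicate 4 lies beside the other controls in all 6 panels.

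To describe functions, the genes were grouped by the Ensembl IDs that the study printed under its KEGG, UniProt and GO terms. The study chose these terms because they were enriched among its own calls on these libraries, and its printed ID lists are shortened, so a list's direction is not independent evidence. The IDs come from its analyses of genes that it had called against controls in a B- or T-cell lymphoma or line. The members were thus selected as well, and the shares over all genes are no neutral yardstick for them. Of the 602 list genes tested, 371 (61.6%) were called, against 27% of all genes. Among 31 KEGG and UniProt lists, 24 held more genes that fell than rose and 7 the reverse.

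Genes for copying DNA and dividing were up-regulated in CLBL. Of 16 genes for the initiation of DNA replication, the step that loads and fires the replicative helicase, 13 rose and 0 fell, with a median log2 fold-change of 2.41 beside -0.17 for all genes. Of 22 genes of the DNA replication pathway, 18 rose and 1 fell (median 1.804), and 8 of these 22 are also in the former list. Summed over the 16 initiation genes, the controls had 765, 604, 766 and 585 CPM and CLBL 2120 to 4074 CPM. The lowest CLBL library was thus well above the highest control. The member with the largest rise went from 4.97 to 12.8 CPM in the controls to 62.1 to 216 CPM in CLBL (log2 fold-change 3.67, SE 0.34, adjusted p = 6.27e-11, edgeR).

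Chromosome segregation genes moved with them. The kinetochore ties chromosomes to the spindle, and 13 of its 18 listed genes rose and 0 fell (median 2.27). The leading member was at 8.46 to 15.7 CPM in the controls and at 109 to 221 CPM in CLBL, a log2 fold-change of 3.73 (SE 0.35, adjusted p = 7.41e-11, edgeR). Of 20 genes of the mitotic spindle, 15 rose and 4 fell (median 1.89), and none of these 20 is in the kinetochore list. The spindle gene with the largest fall went from 40.8 to 49.8 CPM in the controls to 0.612 to 23.1 CPM in CLBL (log2 fold-change -2.68, SE 0.46, adjusted p = 8.30e-06, edgeR), and it was at 53.8 to 210 CPM in the B-cell lymphomas.

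Within the wider cell cycle lists the genes divided. In the KEGG cell cycle list 17 of 27 rose and 3 fell (median 1.42). In the G1/S transition list 16 of 39 rose, 7 fell and 16 did not pass (median 0.39). Some G1/S genes were at or near 0 in CLBL. The first was at 41.5 to 70.6 CPM in the controls and had no read in CLBL, at least 555-fold lower. The second was at 10.98 to 55.2 CPM and the third at 18.3 to 38.8 CPM in the controls, and neither exceeded 0.321 CPM in any CLBL library. In the cell cycle list the member with the largest fall was at 4.65, 1.99, 2.43 and 20.9 CPM in control replicates 1 to 4 and at 0 to 0.55 CPM in CLBL, and among the controls it was highest in replicate 4.

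The lists of B-cell functions were called about as often as all genes or less. A lack of calls does not show a lack of change. On simulated counts, 4% of genes changed by 1 (log2) and 50% of those changed by 2 were called. MHC class II molecules present peptides on B cells and other antigen-presenting cells to helper T cells, and 0 of the 9 listed genes passed the threshold in either direction (range -1.14 to 0.92, median 0.01). Their summed level was 7841 to 11949 CPM in CLBL and 9460, 9952, 10670 and 7544 CPM in control replicates 1 to 4, so the groups overlapped. The member with the most reads was at 1579 to 2821 CPM in CLBL and 1701 to 3322 CPM in the controls (log2 fold-change -0.45, SE 0.37, adjusted p = 0.284, edgeR). Members of this family resemble each other in sequence, so reads may be divided among them with error. The B-cell lymphomas were more variable, at 2789 to 12626 CPM. The T-cell line OSW had 21.1 to 31.4 CPM, but the T-cell line CL-1 had 5145 and 5299 CPM. The only library of the B-cell line GL-1 had 85.3 CPM, so among the lines this level did not follow B-cell origin.

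The B-cell receptor passes the signal of bound antigen through kinases of the SYK and BTK families. Of its 20 listed genes 0 rose, 3 fell and 17 did not pass (median -0.06), where 9.31% of all genes rose and 17.7% fell. The largest fall was from 33.2 to 125 CPM in the controls to no read in CLBL, at least 648-fold lower (adjusted p = 7.88e-10, edgeR), and that gene was at 0.223 to 10.7 CPM in the B-cell lymphomas. The other falls were from 64.2 to 195 CPM to at most 0.691 CPM and from 54.5 to 104 CPM to at most 4.72 CPM. The member with the most reads among those not called was at 632 to 1035 CPM in CLBL and 169 to 276 CPM in the controls (log2 fold-change 1.90, SE 0.42, adjusted p = 0.000194, edgeR), without overlap. Because of such members the summed level of the list was higher in every CLBL library (3993 to 5000 CPM) than in every control (3239 to 3660 CPM), although its median was close to that of all genes.

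In related lists the counts were also near those shares. Of 20 regulators of B-cell proliferation, 4 of them shared with the receptor list, 2 rose, 3 fell and 15 did not pass (median 0.03). The larger rise was from 108 to 207 CPM in the controls to 446 to 716 CPM in CLBL. In the list of antigen processing and presentation 4 of 25 rose, 3 fell and 18 did not pass (median -0.21). Of these 25, 8 are also in the MHC class II list, in which 0 genes passed. One of the genes that fell there had a high level, at 3718, 4166, 3378 and 1730 CPM in control replicates 1 to 4 and 630 to 1734 CPM in CLBL (log2 fold-change -1.57, SE 0.21, adjusted p = 1.30e-07, edgeR). Its highest CLBL library just reached control replicate 4, the lowest of the controls. More genes than that share fell in the next lists. Of 20 genes of the NF-kappa B pathway, which carries survival signals in lymphocytes, 0 rose and 8 fell (median -1.20). Of 20 regulators of lymphocyte apoptosis 1 rose and 10 fell (median -1.98).

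**Figure D3:**
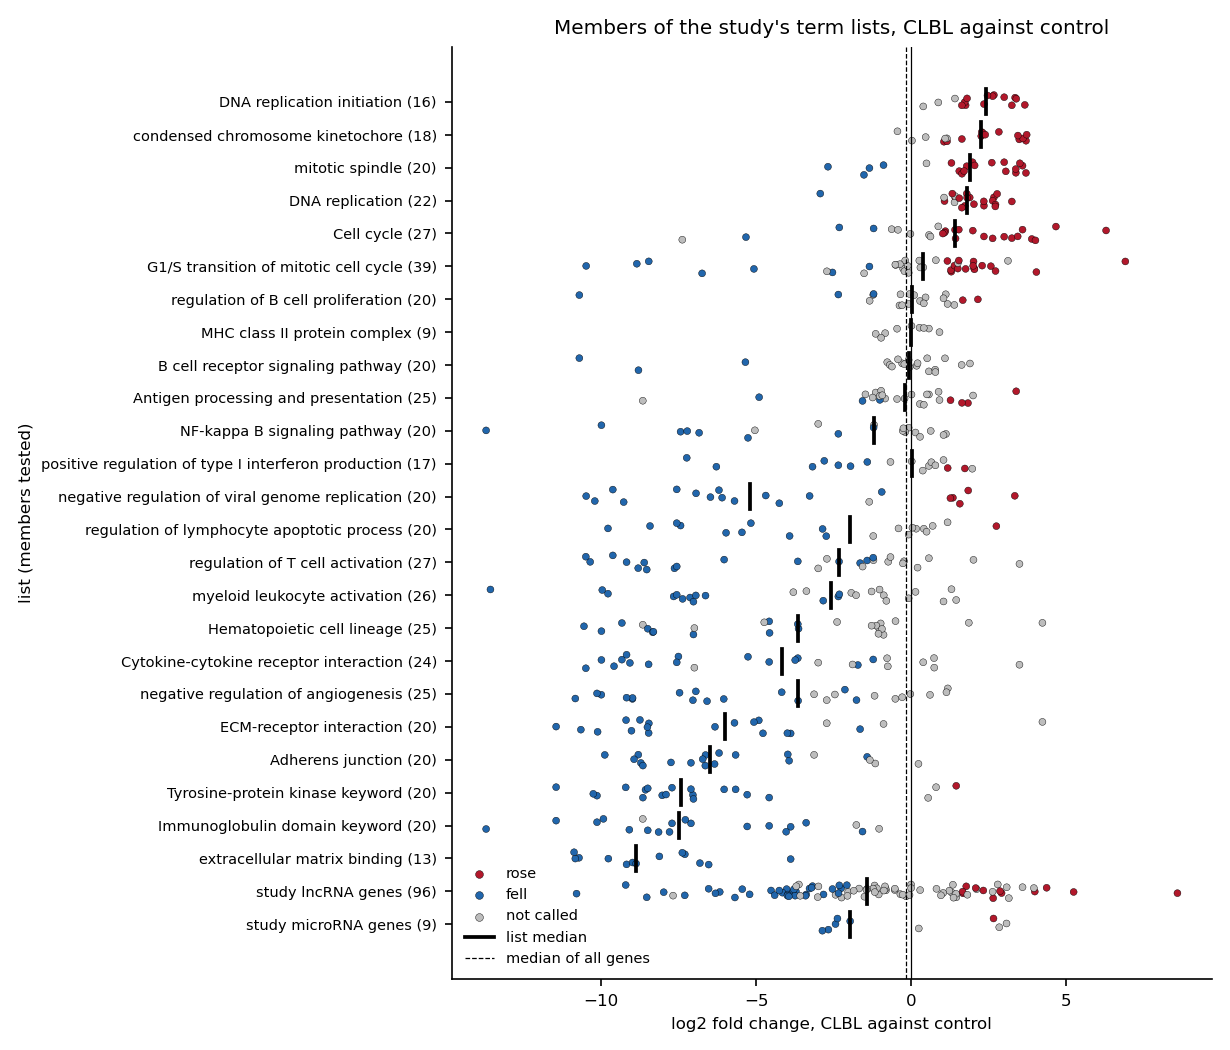
Each point is 1 listed gene at its log2 fold-change of CLBL over control, red where it rose, blue where it fell and grey where it did not pass, with the number tested in brackets, thick lines for list medians and a dashed line for the median of all genes (-0.17). Replication and division lists sit to the right, the MHC class II list straddles 0 with a median of 0.01, and matrix, adhesion and kinase lists lie to the left down to a median of -8.88.

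Genes for binding of the extracellular matrix had the lowest median of the lists described here. All 13 of them fell, with a median log2 fold-change of -8.88, or -8.40 with the 4 genes at 0 in CLBL set to their bound. Their summed level was 1100, 1486, 990 and 669 CPM in control replicates 1 to 4 and 8.62 to 25.9 CPM in CLBL. The 3 members with the largest fall had 29.9 to 118 CPM in the controls and no read in CLBL, and were at least 655-fold, 711-fold and 729-fold lower. The summed level in the B-cell lymphomas was 72.4 to 275 CPM, below the controls and above CLBL in every library. The T-cell line OSW had 130 to 187 CPM and CL-1 43.0 and 43.1 CPM.

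Lists of matrix-receptor interaction and cell contacts were also mostly down-regulated, to different degrees. In the KEGG list of interaction between the extracellular matrix and its receptors 0 of 20 rose and 17 fell (median -6.02). As symbols were not used, its receptors and matrix proteins were not told apart. It shares 1 gene with the binding list. One member went against the rest without passing the threshold: it was at 13.8 to 29.8 CPM in the controls, 214 to 618 CPM in CLBL and 1.34 to 26.5 CPM in the B-cell lymphomas (log2 fold-change 4.24, SE 0.84, adjusted p = 4.30e-05, edgeR). The KEGG list of cell adhesion molecules moved less, with 11 of 26 down, 1 up and 14 not passing (median -3.25). Its gene that rose was at 41.0 to 129 CPM in the controls and 555 to 1012 CPM in CLBL (log2 fold-change 3.29, adjusted p = 1.31e-08, edgeR), and its largest fitted fall was from 34.7 to 143 CPM to no read. Of 20 genes of the adherens junction, the contact between epithelial or endothelial cells, 16 fell and 0 rose (median -6.49). Of 25 inhibitors of angiogenesis 15 fell and 0 rose (median -3.65), and of 20 genes with an EGF-like domain 17 fell and 0 rose (median -6.53).

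The tyrosine-protein kinases listed include receptors for growth factors, and 17 of 20 fell and 1 rose (median -7.41, or -7.15 at the bound). The kinase with the largest fall was at 125, 316, 198 and 256 CPM in control replicates 1 to 4 and at most 0.429 CPM in CLBL (log2 fold-change -11.46, SE 0.92, adjusted p = 6.54e-12, edgeR). The kinase that rose went from 57.7 to 103 CPM in the controls to 145 to 243 CPM in CLBL, a log2 fold-change of 1.46 (SE 0.17). The member with the most reads among those not called was at 307 to 592 CPM in CLBL and 229 to 378 CPM in the controls. In the PI3K-Akt pathway, which growth factor receptors feed, 16 of 25 fell and 1 rose (median -6.33). In the list of platelet-derived growth factor receptor signalling 10 of 20 fell and 1 rose (median -2.19).

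In several further immune lists genes fell and 0 rose, while many members did not pass. These lists are not limited to cells other than B cells. Of 27 regulators of T-cell activation 15 fell, 0 rose and 12 did not pass (median -2.32). The largest fall was from 166 to 411 CPM in the controls to at most 0.354 CPM in CLBL (log2 fold-change -10.50, SE 0.58, adjusted p = 1.12e-15, edgeR), and this gene remained at 70.9 to 405 CPM in the B-cell lymphomas. Of 26 genes of myeloid leukocyte activation 13 fell, 0 rose and 13 did not pass (median -2.59). Their summed level was 539 to 859 CPM in CLBL, 2206 to 2862 CPM in the controls and 1083 to 2350 CPM in the B-cell lymphomas. Of 25 genes of the hematopoietic cell lineage list, some of them shared with the cytokine list, 11 fell, 0 rose and 14 did not pass (median -3.66). Their sums were 1664 to 3385 CPM in CLBL and 3835 to 4618 CPM in the controls. The gene with the highest log2 fold-change in this list (4.24, not called) is the matrix-receptor member that went against the rest. The listed cytokines and their receptors fell in 15 of 24 cases and rose in 0 (median -4.16). Of 20 genes with an immunoglobulin domain, a protein domain rather than an immune function, 17 fell and 0 rose (median -7.50, or -7.20 at the bound). Several of these 20 are also in the tyrosine-protein kinase list, among them the kinase with the largest fall.

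Antiviral genes divided in another way. In the list for negative regulation of viral genome replication, which holds interferon-induced effectors, 14 of 20 fell and 5 rose (median -5.20), leaving 1 that did not pass. The member with the largest fall was at 594, 191, 269 and 238 CPM in control replicates 1 to 4 and at most 0.457 CPM in CLBL (log2 fold-change -10.49, SE 0.53, adjusted p = 1.85e-16, edgeR). Another was at 785, 48.7, 179 and 225 CPM in the controls and at most 1.04 CPM in CLBL, and its controls differed among themselves far more than those of the former gene. The largest rise was from 5.47 to 8.52 CPM to 59.2 to 110 CPM (log2 fold-change 3.35, SE 0.59, adjusted p = 8.79e-06, edgeR). Control replicate 1 stood out by its sum over the list of 4336 CPM, with 1177, 1846 and 1945 CPM in the others. The CLBL sums of 1330 to 1829 CPM overlapped those of the controls even though most members had fallen. Of 17 genes for the production of type I interferon 2 rose and 7 fell (median 0.02).

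**Figure D4:**
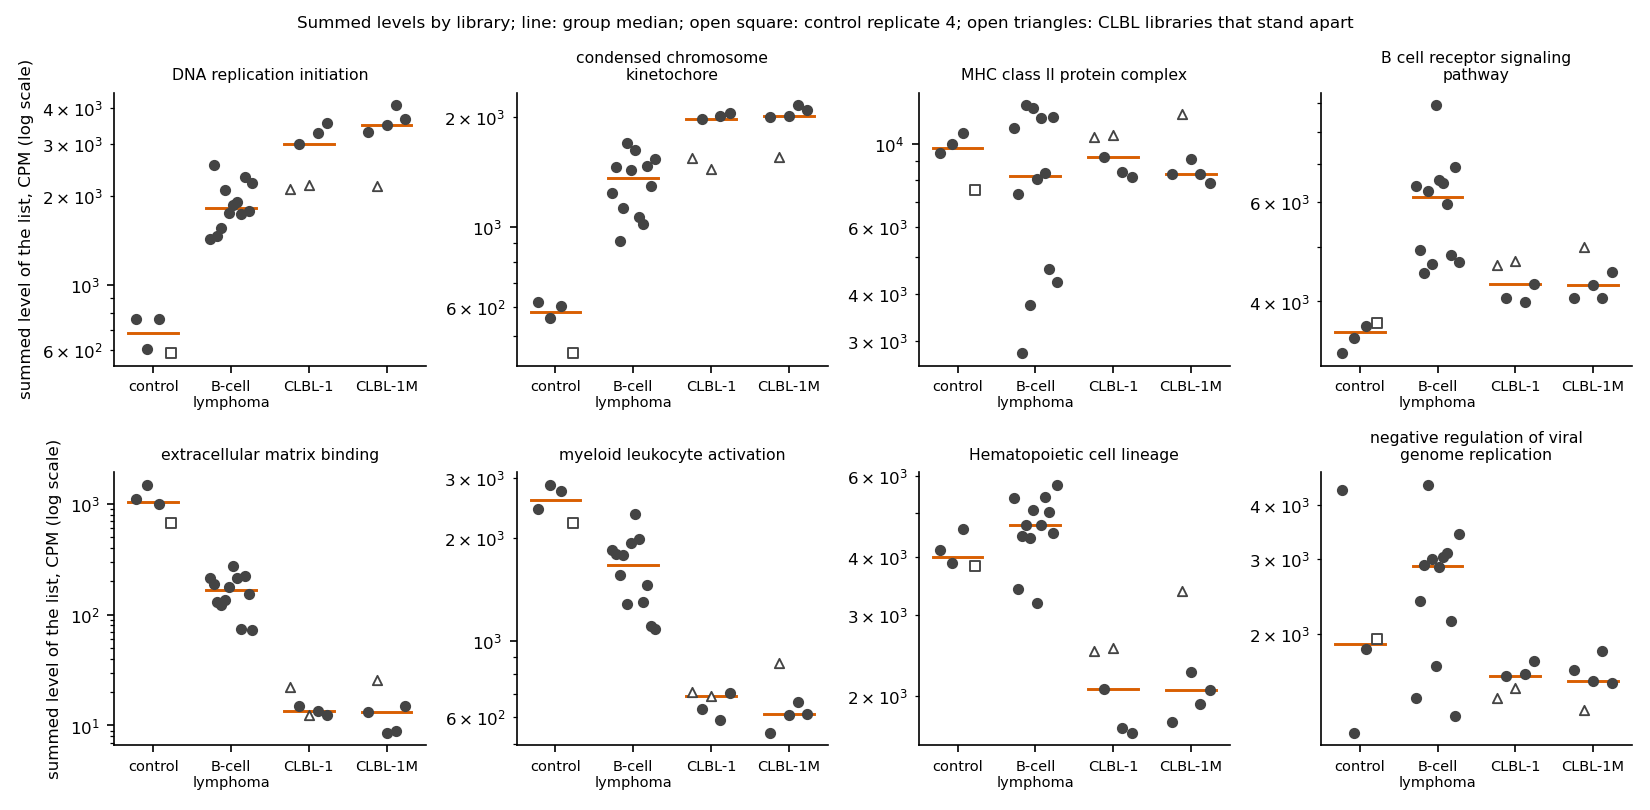
Each panel gives the summed level of 1 list (CPM, log axis) in each library, by group, with the group median as a line, open squares for control replicate 4 and open triangles for the 3 CLBL libraries that stood apart. The B-cell lymphomas lie between the groups without overlap for matrix binding (72.4 to 275 CPM), they reach into the CLBL range for replication initiation and the kinetochore and into the control range for myeloid activation, and the MHC class II sums of CLBL (7841 to 11949 CPM) overlap those of the controls.

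The CLBL libraries varied among themselves along these lists. The 3 that stood apart had 2120 to 2185 CPM for replication initiation, against 3010 to 4074 CPM in the other 7, and 1446 to 1558 CPM for the kinetochore, against 1981 to 2159 CPM. They had higher sums for some other lists. MHC class II genes had 10390 to 11949 CPM (7841 to 9198 CPM in the other 7). The hematopoietic lineage had 2500 to 3385 CPM (1664 to 2249 CPM) and genes with an immunoglobulin domain 2063 to 2481 CPM (1210 to 1671 CPM). The antiviral list went the other way, with 1330 to 1496 CPM against 1535 to 1829 CPM. The sums of T-cell activation, myeloid activation and the cytokine list overlapped between the 3 and the other 7. The 3 libraries include both titles and are also the shallowest libraries of the line, and the part of depth in these differences was not tested. Without them 1118 genes rose and 2279 fell, the replication initiation list had 13 of 16 genes up and a median of 2.46, and the MHC class II list still had 0 calls.

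Against control replicate 4 alone the list medians were 2.68 for replication initiation, 2.48 for the kinetochore, 0.22 for MHC class II genes and -0.09 for the B-cell receptor list. They were -2.08 for T-cell activation, -2.70 for myeloid activation, -4.74 for the antiviral list, -7.04 for the tyrosine-protein kinases and -8.46 for matrix binding.

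Of 97 long non-coding RNA genes that the study listed as differentially expressed, 96 were tested, of which 12 rose, 34 fell and 50 did not pass (median -1.43, or -1.32 at the bound). The largest rise was of a gene without a read in any control or B-cell lymphoma and at 10.9 to 26.4 CPM in CLBL, a log2 fold-change of at least 5.82 against the floor of 3 counts over the controls. Another was at 1.69 to 4.48 CPM in the controls, 2.20 to 13.2 CPM in the B-cell lymphomas and 52.1 to 93.3 CPM in CLBL. The largest fall was from 70.5 to 186 CPM in the controls to at most 0.429 CPM in CLBL. If the counting did not use strand, which is not stated, reads of these genes and of a gene on the opposite strand cannot be separated.

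Of the 9 microRNA genes listed by the study 1 rose and 5 fell (median -1.97). Mature microRNAs have no poly-A tail, so these libraries do not measure them directly. The one with the most reads was at 248, 178, 222 and 121 CPM in control replicates 1 to 4, at 24.2 to 63.9 CPM in CLBL and at 159 to 402 CPM in the B-cell lymphomas (log2 fold-change -2.44, SE 0.28, adjusted p = 4.60e-09, edgeR). The gene that rose was at 2.53, 1.49, 3.96 and 15.7 CPM in the controls and 15.5 to 50.04 CPM in CLBL (adjusted p = 4.89e-06, edgeR), so control replicate 4 overlapped the lowest CLBL library. A further one was at 0, 0, 0 and 55.3 CPM in control replicates 1 to 4, at 9.36 to 31.9 CPM in CLBL and at most 0.382 CPM in the B-cell lymphomas, and it did not pass the threshold (adjusted p = 0.789, edgeR). In both genes control replicate 4 was above the other 3 nodes and at or above the lowest CLBL library.

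Pooling CLBL-1 with CLBL-1M was examined by comparing them with each other. At the same threshold 0 genes (0%) differed by edgeR, the lowest adjusted p being 0.244, and 9 differed by DESeq2. By edgeR 201 genes (1.33%) had an unadjusted p under 0.05. That share is below the cut of 0.05 itself, so the test was conservative here, and its 0 calls do not show that the titles are alike. Of the 11393 genes with a mean of at least 10 CPM, 95.7% differed by less than 2-fold between the titles, with a median absolute log2 difference of 0.12, while 490 differed by more. The titles and the names of the data exchange CLBL-1 and CLBL-1M, which would turn the sign of these differences and leaves the pooled values as they are.

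Set against the 12 primary B-cell lymphomas, CLBL differed in 3534 genes (23.3%), of which 1314 (8.67%) were higher and 2220 (14.6%) lower in CLBL. The median log2 difference of CLBL over B-cell lymphoma was 0.91 for replication initiation (6 of 16 higher, 0 lower) and 0.94 for the mitotic spindle (10 of 20 higher, 2 lower). It was -4.92 for matrix binding (10 of 13 lower), -4.38 for the tyrosine-protein kinases (14 of 20 lower) and -1.94 for myeloid activation (14 of 26 lower). For MHC class II genes it was 0.22, with 0 of 9 called, and for the B-cell receptor list -0.61, with 4 of 20 lower and 0 higher. For the antiviral list it was -4.64, with 15 of 20 lower and 1 higher. Both comparisons use the same CLBL libraries, so their values are given side by side only.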

How the data were processed

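RNA of the 4 nodes and 10 CLBL replicates was sequenced by the study as paired-end poly-A libraries. The authors aligned reads to CanFam3.1 with BWA, filtered them with Picard and SAMtools and counted them on Ensembl genes with HTSeq 0.6.1. The authors deposited these as raw, unnormalized counts, and the strand setting is not given in the sources used here. Reads outside genes were 76.2 to 82.9% of the listed reads in the controls and 70.4 to 73.8% in CLBL, and stayed out of library sizes. At 1962722 to 3414487 counts per library, precision is limited for genes near 1 CPM.

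All steps here began with the counts. Of 32704 genes, 25270 had a read and 15162 passed the filter taken from the study, a highest CPM above the 40th percentile. In R 4.3.3, edgeR 4.0.16 (TMM, quasi-likelihood) fitted 1 model to all 37 libraries in 7 groups, with CLBL pooled, and p-values were adjusted by Benjamini-Hochberg with a threshold of 1e-05. A second model kept CLBL-1 and CLBL-1M apart. The SE was taken as the size of a log2 fold-change over the root of its F statistic. On simulated counts for CLBL against control over 15162 genes, 4, 50, 74 and 96% of genes changed by 1, 2, 3 and 4 (log2) were called, and 0 of 14962 unchanged genes.

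Samples were grouped by title. The members and lists were chosen with earlier results of these data known. Genes to be named were the 10 largest rises and 10 largest falls among called genes without overlap and with a mean of at least 20 CPM, SHCBP1 and FLT3, and in each list up to 3 rises, 3 falls and the 2 uncalled members with the most reads. No symbols were paired with the IDs here beyond SHCBP1 and FLT3, so lists by symbol and cell type markers were not used. At most 2 IDs in each direction are printed. The lists are the study's printed IDs, to which 15 GO terms were added after seeing the data. The same was true of the fit without the 3 CLBL libraries that stood apart. The other alternatives were RLE and upper-quartile scaling, no filter, filterByExpr, only the groups compared, a replicate block, a threshold of 0.05, thinning to 1962722 counts, DESeq2 1.42.0, control subsets, CLBL titles alone and leaving out each replicate. The study's fold-changes and p-values were not used.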

Additional observations from a re-analysis of the deposited data

Results flagged for a closer look

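Among 80 groups of values tested for a single library far from the others (the CLBL or control libraries of 1 list or depth measure), 5 were singled out, and chance alone does so for about 1 in 20. In CLBL-1M replicate 2 the summed level of the inhibitors of angiogenesis was 815 CPM (the other CLBL libraries 521 to 673 CPM), that of the hematopoietic cell lineage 3385 CPM (1664 to 2539 CPM) and that of the listed microRNA genes 228 CPM (146 to 189 CPM). This library is one of the 3 that stood apart. In CLBL-1M replicate 5 the summed level of platelet-derived growth factor receptor signalling was 2244 CPM (1581 to 1854 CPM in the others). In control replicate 4 0.476% of reads fell on more than 1 gene (0.128 to 0.143% in the other controls).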

How the results depend on the processing

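The count for CLBL against control, 4097 as reported, was 9896 at a threshold of 0.05, 1234 against control replicate 4 alone, 2525 with only the samples titled CLBL-1 and 2542 with only those titled CLBL-1M, where fewer libraries enter. Leaving out each library in turn gave 3182 to 3983, lowest without control replicate 2. The share of called genes that fell, 65.6%, was 76.3% with RLE size factors and 93.0% against control replicate 4 alone, and the cause was not tested. CLBL-1M against CLBL-1 gave 0 genes in each edgeR alternative and 9 with DESeq2. CLBL against B-cell lymphoma gave 3534 genes, 9780 at 0.05 and 1566 with a replicate block. The block also gave 2896 genes for CLBL against control, but the replicate numbers did not pair the samples: same-numbered libraries deviated together with a mean correlation of -0.06 between CLBL-1 and CLBL-1M, 0.03 between CLBL-1 and control and 0.04 between CLBL-1M and control, so the libraries share only a number. Of the values of SHCBP1, FLT3 and the 4 genes named by ID, 165 kept their direction and side of the threshold, and 3 lost the threshold, all against control replicate 4 alone: ENSCAFG00000013961 (7.52), ENSCAFG00000025377 (6.53) and SHCBP1 (3.32). Of 30 lists, 24 had a median beyond 0.5 in size, and 0 of their 672 values under the alternatives had the other sign. The alternatives reuse the same libraries, and the threshold of 0.05 leaves the medians as they are, so a shared sign is largely built in. A gene under 0.989 to 1.53 CPM in a control had fewer than 3 counts there, so its fall was not detectable at this depth.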
